A study of Mus musculus with 7 samples.

Results

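Serpins are protease inhibitors, and 7 serpin genes that myeloid cells are known to express were followed from immature to mature dendritic cells (DCs). They were taken by gene symbol from the 28666 genes of the deposited table and are Serpinb1a, Serpinb2, Serpinb6a, Serpinb6b, Serpinb8, Serpinb9 and Serping1. The cells were bone marrow-derived dendritic cells (BMDCs) of female C57BL/6 mice aged 6 to 8 weeks, grown for 7 days with GM-CSF and IL-4 and then held in a Transwell system beside MC38 cells, a mouse colon carcinoma line. RNA was sequenced from immature BMDCs in 3 libraries and from mature BMDCs in 4, which the study separated by flow sorting after 24 h of DON, a glutamine antagonist. A drawing of the study also names DMSO for the co-culture. The study describes its DON arm as supplemented with glutamine and its DMSO arm as held at a lower glutamine level. The labels give only the stage of each library, so neither an agent nor a glutamine level can be assigned to single libraries. The sources do not state which surface markers set the gates. The study says in general terms that its experiments were repeated independently, but no source used here ties a library to a mouse or culture, so the p-values below measure the spread between these libraries, which may be technical.

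A serpin presents a flexible loop to its target as bait. When the protease cuts the loop, the serpin changes shape and traps the enzyme in a permanent complex, so each molecule is used up by a single cut. Clade B serpins, to which all members but Serping1 belong, mostly stay inside the cell. In myeloid cells and lymphocytes they are known for guarding the cytosol against granule and lysosomal proteases, while Serping1 is the secreted C1 inhibitor of the complement and contact systems.

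The part of each clade B gene that decides which protease is caught is the loop. The coding stretches of the loop are shown for the 6 clade B members because the results below set close relatives apart. They come from GENCODE M21 transcripts on GRCm38 and run 5′ to 3′ in coding orientation. The lower case part is the hinge of 24 bases, and capitals mark the variable loop up to the closing motif behind it.
Serpinb9: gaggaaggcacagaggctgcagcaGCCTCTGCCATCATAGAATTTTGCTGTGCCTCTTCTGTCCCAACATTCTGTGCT
Serpinb6b: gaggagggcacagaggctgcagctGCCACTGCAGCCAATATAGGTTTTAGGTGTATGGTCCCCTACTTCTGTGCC
Serpinb6a: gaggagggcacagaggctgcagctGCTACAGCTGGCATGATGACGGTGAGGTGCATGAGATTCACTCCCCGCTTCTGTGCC
Serpinb8: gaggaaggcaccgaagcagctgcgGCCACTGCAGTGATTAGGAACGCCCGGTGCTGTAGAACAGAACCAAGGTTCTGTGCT
Serpinb1a: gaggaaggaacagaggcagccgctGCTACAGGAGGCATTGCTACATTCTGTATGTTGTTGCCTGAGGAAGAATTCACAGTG
Serpinb2: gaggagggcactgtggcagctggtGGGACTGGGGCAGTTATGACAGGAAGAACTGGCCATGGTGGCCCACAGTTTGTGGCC

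Serpinb6a and Serpinb6b were the closest pair of members, with 81.0% of aligned coding bases identical, gaps counted as differences. Over the capitals alone the same pair had 57.9% identical bases, as had Serpinb6b and Serpinb9, and Serpinb8 and Serpinb9. The stretches lie at bases 970 to 1047 of the Serpinb9 coding sequence and at bases 982 to 1056 of that of Serpinb6b. No run of 100 bases from the transcripts of Serpinb1a, Serpinb6a, Serpinb6b, Serpinb8, Serpinb9 or Serping1 was found in a transcript of another gene. In Serpinb2, 7.52% of such runs also occurred in Serpinb10.

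Of the 7 genes, 4 were higher and 1 was lower in mature DCs, and 2 did not pass the test. A gene was called where the log2 fold change was 1 or more in either direction with an adjusted p below 0.05, by edgeR's quasi-likelihood test on the counts of the 17461 genes that passed its filter on low counts, all 7 members among them. Among all these genes 13.2% were called higher and 9.95% lower. No overlap between the CPM values of the immature and mature libraries was seen for 6 of the 7 members, against 52.1% of all genes tested. The median log2 fold change was 1.13 over the members and 0.05 over all genes tested. CPM is the count scaled to a common library size with TMM and serves to compare libraries, and FPKM, which also divides by transcript length, serves to compare genes. A lower level in a sorted pool can come from fewer cells with the RNA or from less RNA per cell, which cannot be told apart here.

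**Figure D1:**
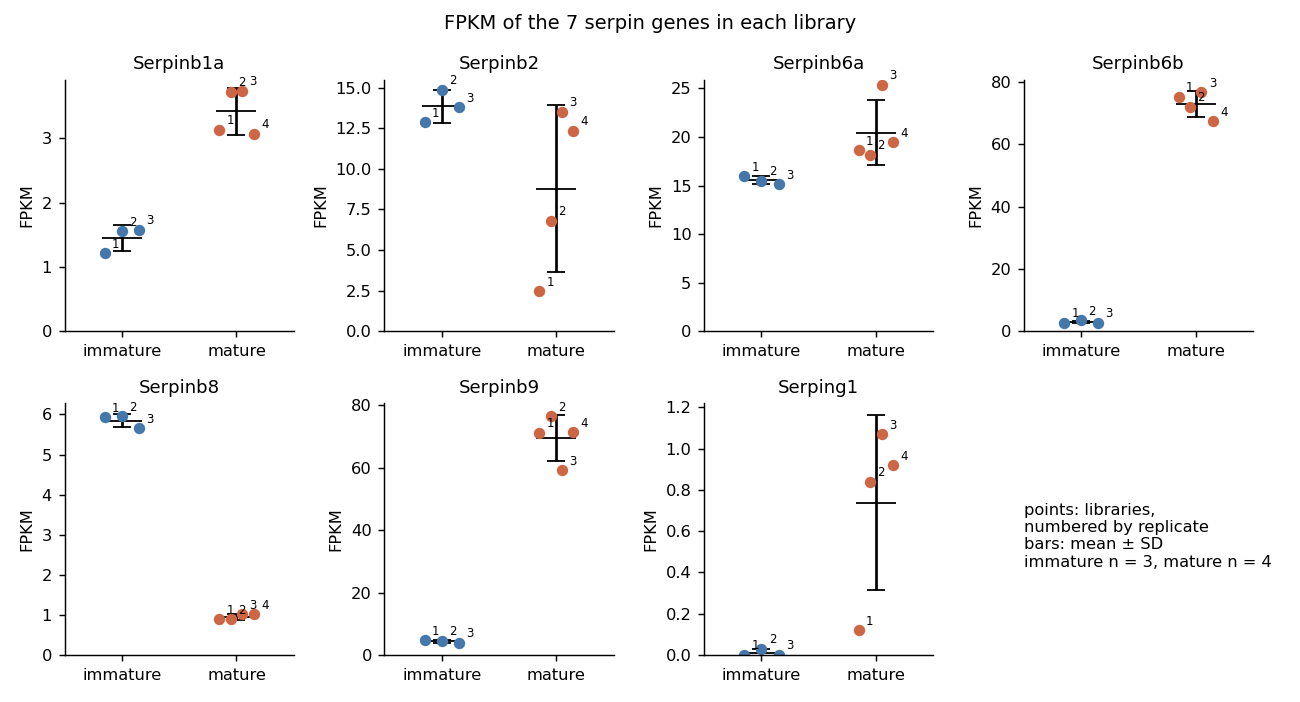
FPKM of each of the 7 genes in the 3 immature (blue) and 4 mature (orange) libraries, with replicate numbers beside the points, a horizontal line at the group mean and bars of 1 SD. Serpinb6b and Serpinb9 sit at 2.69 to 4.70 FPKM in all immature libraries and at 59.25 to 76.75 in all mature libraries, whereas Serpinb2 and Serping1 spread widely among the mature libraries.

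Serpinb9, the inhibitor of the cytotoxic granule protease granzyme B, rose from a low to a high level. The gene lies on chromosome 13 (chr13:33003250-33017957, plus strand). Its CPM was 18.5, 17.6 and 16.0 in immature replicates 1 to 3 and 258, 271, 234 and 262 in mature replicates 1 to 4. Every mature library was far above every immature library, and the mature libraries stayed close together, with a coefficient of variation of 6.14%. Mature exceeded immature DCs by a log2 fold change of 3.88 ± 0.10 (SE, 95% interval 3.65 to 4.11, adjusted p = 1.3e-07). In FPKM the gene went from 4.37 ± 0.411 (SD, n = 3) to 69.6 ± 7.34 (SD, n = 4). By mean FPKM it stood at place 6881 of all genes in immature DCs and at place 645 in mature DCs.

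Serpinb6b, a relative of Serpinb6a that lies 24182 bases before Serpinb9 on the same strand, showed the largest log2 fold change among the members with more than 1 CPM in every library. It lies at chr13:32965209-32979067. Its CPM was 6.88, 8.81 and 7.28 in the immature libraries. In the mature libraries it was 177, 166, 197 and 160, which left a wide gap between the groups. The log2 fold change was 4.51 ± 0.13 (SE, 95% interval 4.20 to 4.82, adjusted p = 1.8e-07), a 22.8-fold rise. Mean FPKM went from 2.97 ± 0.440 (SD, n = 3) to 72.9 ± 4.15 (SD, n = 4), from place 8172 to place 615 among all genes.

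Serpinb6a, known as an intracellular inhibitor of cathepsin G and related proteases, did not pass the test although it shares most of its coding sequence with Serpinb6b. The gene is at chr13:33917918-34002794 on the minus strand. Its CPM was 97.6, 93.8 and 95.7 in the immature libraries and 105, 99.9, 155 and 111 in the mature libraries. All mature values lay above all immature values, but mature replicate 3 was well above the other mature libraries. The log2 fold change of 0.30 ± 0.15 (SE, 95% interval -0.05 to 0.64, adjusted p = 0.142) did not pass the test. Without mature replicate 3 it was 0.16. The summed FPKM of all genes was 381707 in that library and 327714 to 337706 in the other 6, and the part of this in the value was not tested.

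Serpinb1a, an inhibitor of the neutrophil serine proteases elastase, proteinase 3 and cathepsin G, also rose, but from a low level to another low level. It lies at chr13:32842092-32851185 on the minus strand. Its CPM was 3.17, 4.03 and 4.26 in immature DCs and 7.49, 8.72, 9.76 and 7.44 in mature DCs, with no overlap. This gave a log2 fold change of 1.13 ± 0.17 (SE, 95% interval 0.73 to 1.53, adjusted p = 0.00082), a rise of 2.19-fold. Its mean FPKM was 1.45 ± 0.206 (SD, n = 3) in immature and 3.42 ± 0.365 (SD, n = 4) in mature DCs. The interval reaches below the fold change criterion, and limma on log2(FPKM + 1) gave 0.85, short of it.

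Serpinb8, an intracellular inhibitor of the proprotein convertase furin, was the only member called lower. The gene lies at chr1:107590006-107610484 on the plus strand. Its CPM was 32.1, 32.0 and 31.7 in the immature libraries and 4.43, 4.37, 5.54 and 5.10 in the mature libraries. Immature libraries hardly differed from each other, with a coefficient of variation of 0.728%, and each was well above every mature library. Its log2 fold change was -2.72 ± 0.11 (SE, 95% interval -2.98 to -2.46, adjusted p = 5.5e-07), a 6.58-fold lower level in mature DCs. In FPKM it went from 5.85 ± 0.171 (SD, n = 3) to 0.952 ± 0.0723 (SD, n = 4).

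Serpinb2, plasminogen activator inhibitor type 2, is known as an inhibitor of urokinase that macrophages make in large amounts under inflammation. It lies at chr1:107511423-107532535 on the plus strand and overlaps the neighbouring gene Serpinb10 on the same strand by 3533 bases, so reads of the shared part could be given to either gene. Its CPM was 34.1, 39.0 and 37.9 in the immature libraries. In the mature libraries it was 6.02, 16.2, 36.0 and 30.4, a coefficient of variation of 61.4% against 6.93% in immature DCs. Mature replicates 1, 2 and 4 lay below all immature libraries, mature replicate 4 only a little, and mature replicate 3 lay within the immature range. The log2 fold change of -0.74 ± 0.48 (SE, 95% interval -1.84 to 0.36, adjusted p = 0.244) did not pass the test. It was -0.43 without mature replicate 1 and -1.05 without mature replicate 3. With mature replicate 1 as the only mature library it was -2.59 (adjusted p = 2.35e-06).

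Serping1, the C1 inhibitor, was near the limit of detection in immature DCs and uneven in mature DCs. It lies at chr2:84765387-84775444 on the minus strand. The libraries held 0, 4 and 0 counts in immature replicates 1 to 3. Mature replicates 1 to 4 held 19, 131, 150 and 142 counts, or 0.288, 1.98, 2.84 and 2.27 CPM, so that mature replicate 1 was closer to the immature libraries than to the other mature libraries. The log2 fold change was 6.22 ± 1.18 (SE, 95% interval 3.52 to 8.91, adjusted p = 0.00262), and its size rests on the 4 counts of immature replicate 2. Without that library the immature group was at 0 and the fitted value, 9.83, was set by the prior count of the fit. With mature replicate 1 as the only mature library the value was 3.55 and the adjusted p 0.195. Even in mature DCs the mean was 0.738 FPKM.

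Mature replicates 2 to 4, the libraries with the higher Serping1 counts, also held transcripts of heart muscle. The summed FPKM of 6 heart muscle markers (Tnnt2, Tnni3, Myh6, Actn2, Nppa and Pln) was 1.60 to 1.99 in the immature libraries. In mature replicates 1 to 4 it was 11.6, 107, 116 and 105, and 6 of 6 were called higher in mature DCs. Tnni3 alone was at 11.18 FPKM in mature replicate 1 and at 1.33 to 1.64 in the immature libraries. The other heart muscle markers were at 0 to 0.21 FPKM in mature replicate 1. Of 5 fibroblast markers 3 were called higher. Decorin (Dcn), a matrix proteoglycan of fibroblasts, was at 0.09 FPKM in mature replicate 1 and at 1.36, 1.31 and 1.32 in mature replicates 2 to 4. The collagen gene Col1a1 of the same list went the other way, at 1.16 FPKM in mature replicate 1 and 0.76, 0.54 and 0.69 in mature replicates 2 to 4. It was not called (log2 fold change 0.16). Serping1 shared with the heart muscle sum and Dcn the low value of mature replicate 1. The part of these transcripts in the level of Serping1 was not tested. The genes with the nearest pattern to Serping1 were Tnni3, a heart troponin, at a distance of 2.40, and Crip2 at 2.72. The distance is that between log2 CPM values centred on each gene over the 7 libraries, among 8975 genes with a mean of at least 10 CPM.

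**Figure D2:**
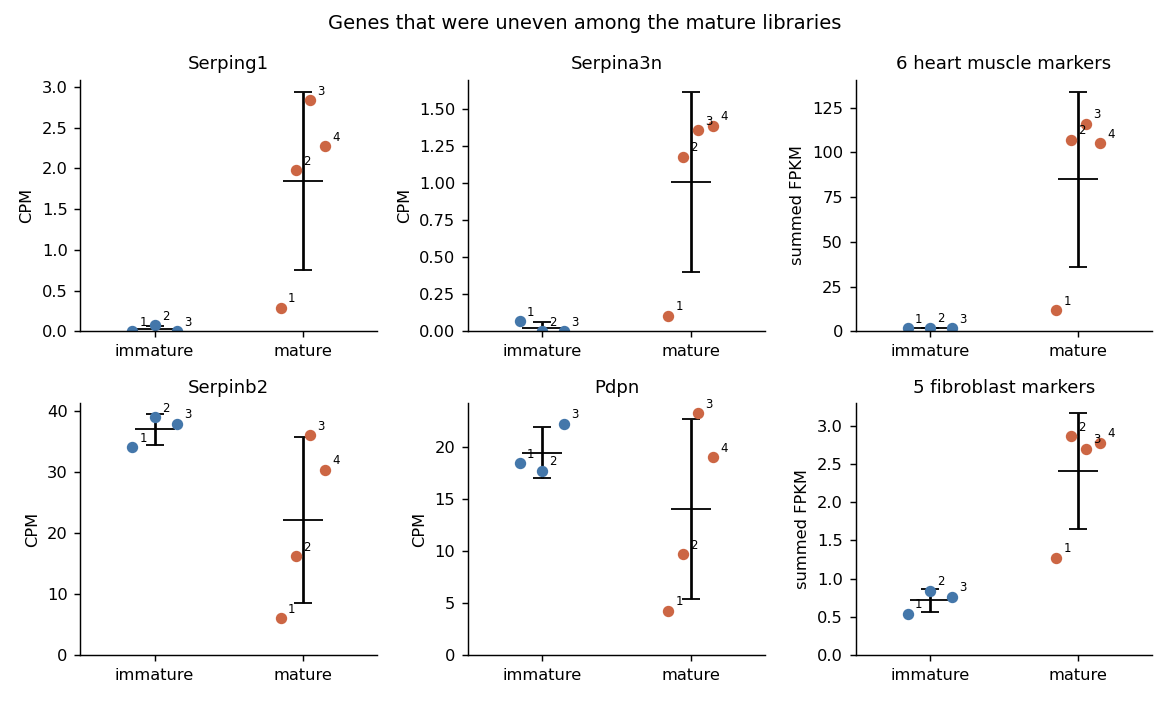
CPM of Serping1, Serpina3n, Serpinb2 and Pdpn and summed FPKM of 6 heart muscle and 5 fibroblast markers in the immature (blue) and mature (orange) libraries, with replicate numbers, group means and bars of 1 SD. In the upper row and for the sum of the fibroblast markers mature replicate 1 lies below mature replicates 2 to 4. For Serpinb2 and Pdpn mature replicates 1 and 2 lie below 3 and 4.

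The order of the members by FPKM changed with the stage. In immature DCs it was Serpinb6a, Serpinb2, Serpinb8, Serpinb9, Serpinb6b, Serpinb1a and Serping1 from high to low, and no neighbours in this order overlapped across the 3 libraries. In mature DCs Serpinb6b (67.4 to 76.8 FPKM) and Serpinb9 (59.2 to 76.5) led and overlapped, followed by Serpinb6a at 18.2 to 25.4. Serpinb2 (2.46 to 13.5) and Serpinb1a (3.07 to 3.74) overlapped, and so did Serpinb8 (0.89 to 1.02) and Serping1 (0.12 to 1.07). The ratio of Serpinb6a to Serpinb6b in FPKM was 4.46 to 5.93 in immature libraries and 0.247 to 0.331 in mature libraries. The ratio of Serpinb8 to Serpinb9 went from 1.26 to 1.45 in immature libraries to 0.0116 to 0.0172 in mature libraries. Between Serpinb9 and Serpinb6b the ratio moved less. It was 1.29 to 1.75 in immature and 0.772 to 1.06 in mature libraries, and these ranges did not overlap.

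The sum over all serpin transcripts was higher in every mature library than in every immature library. The summed FPKM of the 37 genes whose symbol begins with Serpin was 64.4 to 72.1 in immature libraries and 274 to 292 in mature libraries. The 7 members made up 63.5% to 67.3% of the sum in immature and 60.1% to 63.6% in mature libraries, but by different genes. Of the immature sum, Serpinb6a made up 21.5% to 24.8%, Serpinb2 up to 20.6% and Serpinb8 8.27% to 9.21%. In mature libraries the same genes made up 6.32% to 8.93%, 0.896% to 4.76% and 0.310% to 0.359%. Serpinb9 went from 5.80% to 7.30% in immature libraries to 20.8% to 26.6% in mature libraries, and Serpinb6b from 4.08% to 4.83% to 23.1% to 27.5%.

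**Figure D3:**
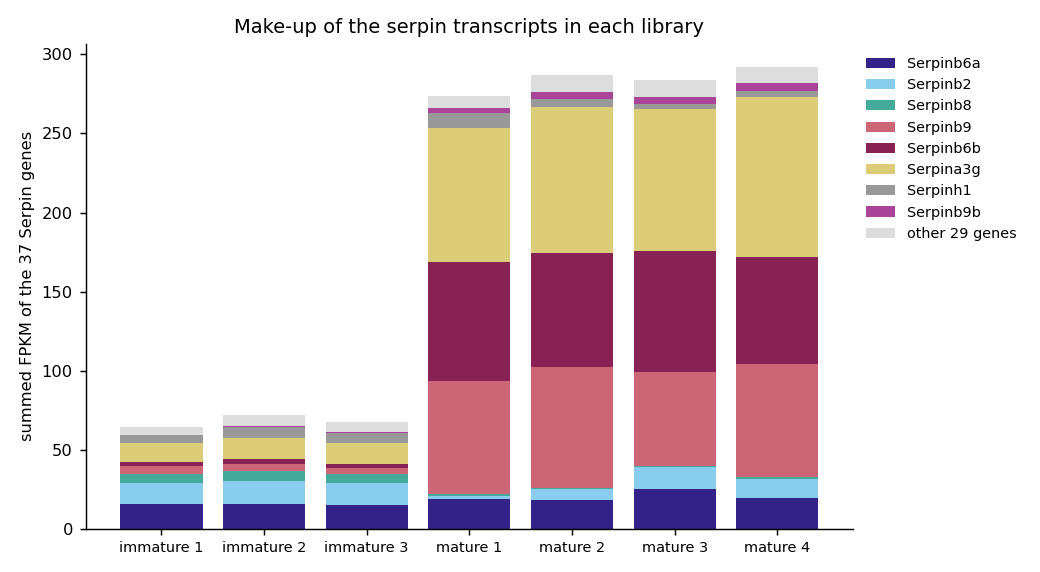
Summed FPKM of the 37 Serpin genes in each library (bar height), split by gene (colours), with the immature libraries on the left. The sum is 64.4 to 72.1 in immature and 274 to 292 in mature libraries, where Serpina3g, Serpinb6b and Serpinb9 fill most of each bar.

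Of the 30 other serpin genes 16 were too low to be tested. Of the remaining 14, 6 were called higher, 1 was called lower and 7 did not pass, beside 13.2% higher and 9.95% lower of all genes tested. The median log2 fold change of the 14 was 1.05, beside 0.05 over all genes tested. Serpina3g, a clade A serpin that acts inside the cell on lysosomal cathepsins, was the most abundant serpin gene of mature DCs. Its CPM was 28.2, 31.4 and 32.0 in immature libraries and 186, 198, 214 and 224 in mature libraries, and its log2 fold change was 2.75 ± 0.10 (SE, adjusted p = 3.8e-07). It reached 92.2 ± 6.86 FPKM (SD, n = 4) in mature DCs from 12.7 ± 0.786 (SD, n = 3). Of its runs of 100 bases, 3.49% also occur in related Serpina3 genes.

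Of the clade B relatives on the chromosomes of the members, Serpinb9b, Serpinb1b and Serpinb10 were called, and Serpinb1c, Serpinb7, Serpinb9d and Serpinb12 were too low to be tested. Serpinb9b, which has 85.1% of coding bases in common with Serpinb9, had a CPM of 0.988, 0.863 and 0.945 in immature and 11.3, 15.5, 17.9 and 17.4 in mature libraries. Its log2 fold change was 4.06 ± 0.21 (SE, adjusted p = 1.4e-06), beside 3.88 for Serpinb9, and the difference of these values was not tested. Serpinb10, known as bomapin and expressed by blood-forming cells, was called lower, at 4.04, 4.04 and 3.73 CPM in immature and 0.530, 0.106, 0.870 and 0.320 in mature libraries (log2 fold change -3.12 ± 0.54, SE, adjusted p = 0.0016). Unlike Serpinb2, which it overlaps, it was lower in every mature library than in every immature library. Serpinb1b, with 89.7% of coding bases in common with Serpinb1a, was called higher (log2 fold change 1.83 ± 0.56, SE, adjusted p = 0.026) at only 7 to 9 counts in immature and 17 to 50 in mature libraries. It lost the call without mature replicate 1 (adjusted p = 0.0574) and without each immature replicate in turn (adjusted p 0.0566 to 0.0886).

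The remaining serpin genes called were rare. Serpini1, or neuroserpin, an inhibitor of tissue plasminogen activator, had a log2 fold change of 1.41 ± 0.36 (SE, adjusted p = 0.0127) and stayed under 1.5 CPM in every library. Serpina3n, a secreted serpin of the acute phase response, held 4, 0 and 0 counts in immature libraries and 7, 78, 72 and 87 in mature libraries (log2 fold change 5.36 ± 1.27, SE, adjusted p = 0.0082), and like Serping1 was lowest in mature replicate 1 among the mature libraries. Its size rests on the 4 counts of immature replicate 1, without which the immature group was at 0 and the fitted value was 8.95. Serpina3i held no count in any immature library and 0, 13, 25 and 10 in mature libraries. At so few counts no fold is given, and the call (adjusted p = 0.0437) was lost without each immature replicate in turn (adjusted p 0.0919 to 0.0954). The collagen chaperone Serpinh1 had a log2 fold change of -0.31 ± 0.31 (SE, adjusted p = 0.463) and did not pass.

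**Figure D4:**
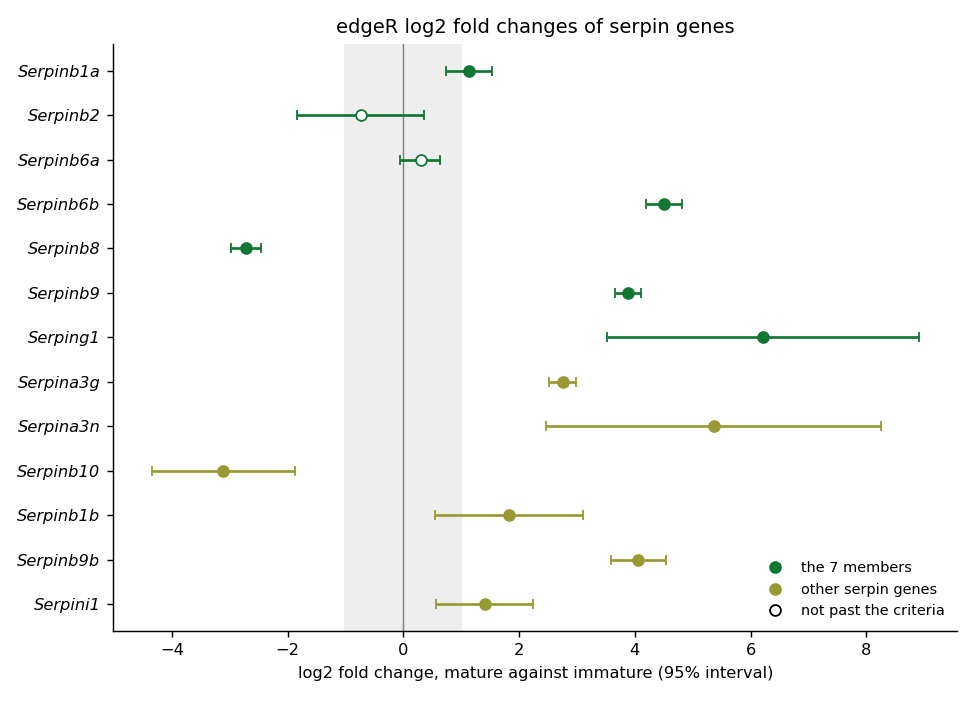
Log2 fold changes of mature against immature DCs from edgeR for the 7 members (green) and for other serpin genes that were called (olive), with bars of the 95% interval. Open points did not pass the criteria and the grey band spans -1 to 1. Serpinb6b, Serpinb9 and Serpinb9b stand at 4.51, 3.88 and 4.06 with short bars, while Serping1 and Serpina3n have intervals several units wide. Serpina3i, which had no count in immature libraries, is left out.

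No tested gene on a list of proteases and their partners was called higher. The list of 30 genes had 28 in the table, of which 23 were tested. Of these, 0 were called higher and 8 lower, beside 13.2% higher and 9.95% lower of all genes tested. Ctsg, a target of Serpinb1a, held 0 to 8 counts per library and was too low to be tested. The median log2 fold change of the 23 was -0.39, beside 0.05 over all genes tested. The macrophage markers described below were lower in mature DCs too, among them Csf1r (log2 fold change -2.62) and Cd68 (-2.42), and their part in the lower protease levels was not tested. An unadjusted p under 0.05 with a log2 fold change above 0 was found by edgeR for 2 of them, Casp4 and Plat, and DESeq2 and limma also called 0 higher.

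Granzyme B (Gzmb), the target of Serpinb9, was nearly silent in both stages. Its CPM was 1.35, 0.971 and 1.41 in immature and 1.52, 1.28, 1.63 and 1.09 in mature libraries, and the groups overlapped (log2 fold change 0.15 ± 0.28, SE, 95% interval -0.48 to 0.78, adjusted p = 0.694). The inflammatory caspase gene Casp1 averaged 52.6 ± 0.686 CPM (SD, n = 3) in the immature and 47.0 ± 4.20 (SD, n = 4) in the mature group (adjusted p = 0.170). Casp4 had a log2 fold change of 0.71 ± 0.13 (SE, adjusted p = 0.00178), under the fold change criterion.

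The urokinase system, the target of Serpinb2, was lower in mature DCs. Urokinase (Plau) had a CPM of 73.4, 74.7 and 77.4 in immature and 13.8, 23.5, 21.8 and 21.7 in mature libraries (log2 fold change -1.89 ± 0.17, SE, adjusted p = 2.8e-05). Its receptor Plaur went from 402 ± 10.3 CPM (SD, n = 3) to 61.6 ± 11.6 (SD, n = 4), a log2 fold change of -2.71 ± 0.15 (SE, adjusted p = 1.7e-06). For these genes, unlike for Serpinb2, all mature libraries were below all immature libraries.

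Furin, the target of Serpinb8, fell as well. Its CPM was 420, 389 and 416 in immature and 160, 166, 145 and 176 in mature libraries (log2 fold change -1.33 ± 0.086, SE, adjusted p = 4.4e-06), beside -2.72 for Serpinb8. The intervals, -1.53 to -1.14 for Furin and -2.98 to -2.46 for Serpinb8, did not overlap. The difference itself was not tested.

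Of the complement proteases that Serping1 holds in check, C1ra (-2.01 ± 0.18, adjusted p = 3.6e-05) and C1rl (-2.67 ± 0.16, adjusted p = 2.5e-06) were lower, as log2 fold change ± SE. C1s1 was not called (-0.35, adjusted p = 0.641) and spread from 0.409 to 2.97 CPM among mature libraries. Masp1 (-0.53, adjusted p = 0.303), Masp2 (2.47, adjusted p = 0.158) and Klkb1 (0.06, adjusted p = 0.977) were not called either. These had 60 counts or fewer in each library. Among the lysosomal cathepsins Ctsb, Ctsl and Ctsk were lower, with log2 fold changes of -1.96, -2.42 and -2.09. Ctss, the cathepsin that trims the invariant chain in DCs, had -0.89 ± 0.11 (SE, adjusted p = 0.00027), short of the fold change criterion. It had the highest FPKM on the list in either stage, 1660 in immature and 959 in mature DCs.

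**Figure D5:**
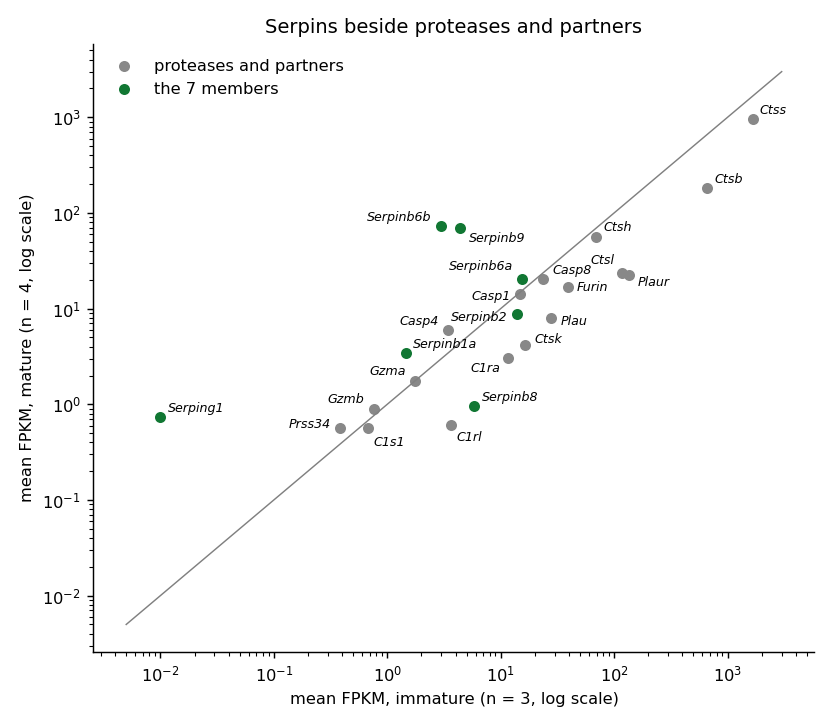
Mean FPKM in mature (n = 4) against immature (n = 3) DCs on log scales, for the 7 members (green) and for listed proteases and partners with at least 0.5 FPKM in a group (grey), with a line of equal levels. Serpinb6b and Serpinb9 lie far above the line, whereas Plau, Plaur, Furin, Ctsb, Ctsl and Ctsk lie below it with Serpinb8.

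The genes nearest to each member in pattern differed from member to member. Nearest to Serpinb9 were Adcy6, an adenylyl cyclase, at a distance of 0.238 and Cacnb3, a calcium channel subunit, at 0.299. Nearest to Serpinb6b were Stat4, a transcription factor of cytokine signalling, at 0.379 and the Toll-like receptor gene Tlr12 at 0.439. Stat4 went from 11.8 to 12.6 CPM in immature libraries to 229 to 278 in mature libraries. Nearest to Serpinb8 were the chemokine gene Ccl6 at 0.201 and Fcgr1, the high-affinity Fc receptor for IgG, at 0.217. Nearest to Serpinb1a were Vmac at 0.183 and the syndecan gene Sdc4 at 0.209. Nearest to Serpinb6a were Pqbp1 at 0.0846 and Fcgrt, the neonatal Fc receptor, at 0.0886, and both had their highest CPM in mature replicate 3.

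The nearest genes to Serpinb2 lay farther off than those of the other clade B members. They were Pdpn, encoding podoplanin, at a distance of 0.500 and Mmgt2 at 0.946. Pdpn had a CPM of 4.24, 9.66, 23.2 and 19.0 in mature replicates 1 to 4 and 17.7 to 22.2 in immature libraries. It thus shared with Serpinb2 the low values of mature replicates 1 and 2.

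Promoter windows of RefSeq on GRCm38.p6, from 250 bases before to 50 bases after a transcript start, were found for 5 of the 7 members, without Serpinb1a and Serping1. Motifs, spelled with N for any base, were searched on both strands and may overlap each other. The interferon-response type (GAAA and GAAA with 2 bases of any kind between) occurred in 3.44% of all 32851 windows, the kappa B type (GGGA and TTCC, likewise 2 bases apart) in 1.47%, the AP-1 type TGANTCA in 7.81% and the STAT type TTCNNNGAA in 8.3%. The 250 bases before the start are shown for Serpinb9 and Serpinb8, the members with strong changes in opposite directions that hold a match, with the match in capitals. They are chr13:33004291-33004540 and chr1:107589756-107590005, both on the plus strand. The Serpinb9 window lies inside the gene span given above, which begins at 33003250, so its start is an internal transcript start.
Serpinb9: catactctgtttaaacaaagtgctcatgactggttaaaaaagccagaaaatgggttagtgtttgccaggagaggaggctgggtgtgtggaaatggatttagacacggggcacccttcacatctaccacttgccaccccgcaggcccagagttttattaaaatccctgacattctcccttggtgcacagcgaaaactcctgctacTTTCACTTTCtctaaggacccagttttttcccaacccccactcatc
Serpinb8: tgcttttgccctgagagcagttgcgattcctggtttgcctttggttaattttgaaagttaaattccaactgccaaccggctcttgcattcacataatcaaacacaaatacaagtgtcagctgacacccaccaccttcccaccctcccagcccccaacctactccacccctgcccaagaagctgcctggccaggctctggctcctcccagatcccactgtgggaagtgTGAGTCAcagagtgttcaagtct

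The capitals in Serpinb9 are an interferon-response type match on the minus strand at positions -46 to -37 from this internal start. Those in Serpinb8 are an AP-1 type match at -23 to -17, and a further AP-1 type match lies at 13 to 19 after the start. Serpinb6b, whose RNA rose beside that of Serpinb9, had none of the 4 motifs in its window. Serpinb6a, which was not called, had windows at 2 starts. One held an interferon-response type match at -84 to -75 that overlapped a STAT type match at -77 to -69 and a further STAT type match at 20 to 28 after the start, and the other held none of the 4 motifs. Serpinb2 also had 2 starts, and the same AP-1 type match lay at -94 to -88 or -181 to -175 and the same STAT type match at 10 to 18 or -77 to -69, depending on the start. A match describes letters in these windows and no binding was measured.

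The labelled cell type was checked by markers. The DC markers Itgax, H2-Aa, H2-Ab1 and Cd74 were high in all libraries. Over the 6 genes listed the sum was 4280 to 4440 FPKM in immature and 5340 to 7260 in mature DCs. Most of it was Cd74, at 3387.16 to 3490.7 FPKM in immature and 4345.22 to 6029.11 in mature libraries. Flt3 and Zbtb46 were called higher in mature DCs. Itgax, H2-Aa, H2-Ab1 and Cd74 had log2 fold changes of -0.41, 0.53, 0.06 and 0.41 and were not called. All 6 macrophage markers were called lower, with sums of 512 to 535 in immature and 104 to 119 in mature libraries, so Serpinb8 fell alongside them. Their part in its level was not tested. Sums of 8 neutrophil markers were 1.51 to 4.21 FPKM over all libraries, with Mpo at no more than 0.02 and S100a8 alone called, lower. Sums of lymphocyte markers were 0.48 to 1.39 with none called. Sums of 6 mast cell and basophil markers were 0.94 to 1.21 in immature and 4.04 to 5.68 in mature libraries, with Kit the highest and the only one called. Sums of erythroid markers were 0 to 0.31 in immature and 1.44 to 4.61 in mature libraries, with 4 called higher. Epithelial markers summed to 13.8 to 21.6, with Cdh1 the highest. Epcam was called higher, at no more than 0.72 FPKM in any library. Krt8, Krt18, Krt19 and Cdh1 had log2 fold changes of -0.57, -0.53, -0.79 and -0.10 and were not called. Hepatocyte markers summed to at most 1.41 and were too low to be tested. Total counts were 54846746 to 67973086 per library. Counts of 4 were more common (959 to 1044 genes per library) than counts of 3 (459 to 529) or 5 (267 to 347). A low count may therefore hold more counting error than its size implies, and the cause of these steps was not tested.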

How the data were processed

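Poly(A) RNA of flow-sorted BMDCs was sequenced in strand-marked, paired-end libraries, 3 of immature and 4 of mature cells by their titles. The table deposited by the authors holds unnormalized counts, as whole numbers for each gene in each library. It also holds FPKM values, for which the authors divided fragments by transcript length and library total. The submitters' processing notes name cutadapt 1.9, HISAT2 2.2.1, StringTie 2.1.6, DESeq2 and edgeR without saying what each did, and they name build mm9. The deposited gene coordinates are not mm9: 96.3% of the 28588 gene IDs found in GENCODE M21 share a start or end with it on GRCm38, so GRCm38 is used here.

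Mature cells were compared with immature cells in R 4.3.3 with edgeR 4.0.16, using filterByExpr, TMM scaling and the quasi-likelihood test on the counts of all genes, with Benjamini-Hochberg adjustment over the 17461 genes tested. The criteria for a call (log2 fold change of 1 or more in either direction, adjusted p below 0.05) are those of the study, which names no test. The standard error is the log2 fold change divided by the square root of F. The script was tested on simulated data. Total counts were 54846746 to 67973086 per library.

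The members, the protease list and the marker lists were chosen with earlier results of these data known. Genes were named by rule: the members, other Serpin genes called or with at least 1 FPKM in a group, listed proteases that were called or belong to a member, clade B neighbours, and for each member the 2 nearest genes in pattern. Casp4, Ctss and other listed genes without a call and the uneven markers were named after their values were seen. Of the protease list, Elane and F12 were not analysed here, and some genes that the rule or the marker lists take in are not reported here. Loop stretches were found by a hinge pattern and a closing pattern in the translated coding sequence, which gave none for Serping1. Pairwise alignments used Biopython 1.88.

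The alternatives were library sizes without TMM, DESeq2 1.42.0, no filter on low counts, limma 3.58.1 on log2(FPKM + 1) and log2(FPKM + 0.1) with at least 1 FPKM in 3 libraries and on log2(FPKM + 1) without that filter, the replicate number as a block, and each library left out in turn. Counts divided by 4 and a fit with mature replicate 1 as the only mature library were added after seeing the data. In the latter the lone library is assumed to vary like the immature ones.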

Additional observations from a re-analysis of the deposited data

Results flagged for a closer look

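Of 21 serpin and related genes compared over the 4 mature libraries, 2 had a single library standing apart, and chance would give 1.05, or about 1 in 20 groups. For Serpina3n it was mature replicate 1, at 0.106 CPM against 1.18 to 1.39 in the other mature libraries, a gap of 0.835 of the whole range. Among the mature libraries the 6 heart muscle markers were lowest there too, at 11.6 FPKM in sum, of which Tnni3 was 11.18. Their part was not tested. For Serpinf2, the plasma inhibitor of plasmin, it was mature replicate 2, at 2.06 CPM (136 counts) against 0 to 0.322 in the other mature libraries, a gap of 0.844 of the range.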

How the results depend on the processing

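Serpinb9, Serpinb6b and Serpinb8 kept their calls under every alternative run. Of the members, 4 were called higher, which fell to 2 with limma on log2(FPKM + 1), with and without its filter, and with mature replicate 1 as the only mature library, where the number lower rose from 1 to 2. The genes lost were Serpinb1a, at 0.85 in both limma fits and at 1.00, just under the criterion, with mature replicate 1 alone, and Serping1, at 0.74 in limma without a filter and 3.55 with mature replicate 1 alone. Serping1 gave no value in the filtered limma fits because it did not pass the FPKM minimum. Serpinb2 was called only with mature replicate 1 alone, at -2.59. Of the other serpin genes 14 were tested in the main fit and 7 were called. The limma fits with a filter tested only 4 of them and each called 2. Limma without a filter tested 28 and called 2. Serpinh1 turned to 0.46 with mature replicate 1 alone, and Gzmb, at -0.0029 to 0.25 over the fits that leave out a library, turned without immature replicate 2.

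When libraries were left out singly, the members called stayed at 4 higher and 1 lower, and the other serpin genes called numbered 5 to 6. Log2 fold changes then ranged from 1.00 to 1.21 for Serpinb1a, from -1.05 to -0.43 for Serpinb2 and from 5.62 to 9.83 for Serping1. Same-numbered libraries did not deviate together (correlations of 0.0285, -0.00114 and 0.0144), so the numbers were not taken to pair them. With the replicate number as a block, in which mature replicate 4 has no partner, 4 other serpin genes were called and the members called were 4 higher and 1 lower. The calls lost under the block were those of Serpina3n (4.78, adjusted p = 0.0663), Serpinb1b (1.96, adjusted p = 0.0823) and Serpina3i (adjusted p = 0.0775). Low counts limit Serping1 and the rare serpin genes.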

Other observations

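A few rare serpin transcripts were uneven among the libraries. Serpina1f, of the alpha-1 antitrypsin family, had 40 counts in mature replicate 2 and 0 in every other library, and Serpinf2 had 136 counts there, 17 in mature replicate 3, 0 in mature replicates 1 and 4 and 12, 20 and 9 in immature replicates 1 to 3. The liver and plasma transport gene Ttr was at 1.05 FPKM in mature replicate 2 and at 0 in the other 6 libraries. Serpinb12 had 32 counts in immature replicate 3, 4 in mature replicate 2 and 0 elsewhere. Serpinb9d, another relative of Serpinb9, had 11 and 15 counts in mature replicates 1 and 4 and 0 in the other libraries. None of these genes except Serpinf2 was tested.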
